A study of Homo sapiens with 9 samples.

Results

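The HOX cluster genes were described in RNA-seq of the human colorectal cancer line LIM1215, which responds to cetuximab, an antibody against the epidermal growth factor receptor, and of the cetuximab-resistant lines derived from it. LIM1215-R1 (R1) and LIM1215-R2 (R2) were selected in parallel under rising cetuximab, and LIM1215-parental (parental cells) was kept over the same time without it. Both resistant lines are mixed populations, not clones, and each holds a subpopulation with an activating HRAS mutation. RNA was taken from untreated basal culture in all 3 lines, with 3 libraries per line, which the study calls technical replicates. The p-values below therefore measure the spread between these libraries, and a difference between cultures or harvests cannot be told apart from a difference between lines.

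The members were all gene symbols that consist of HOX, the letter A, B, C or D and a number with nothing after it, which gave 39 of the 58920 genes listed. Of these, 21 were detected, which means at least 10 counts over the 9 libraries, and these passed into the test. Libraries held 13737416 to 18725014 counts, of which the HOX genes took 0.0213% to 0.0325%. A count of 0 in 1 library allows a level of up to 0.158 to 0.217 CPM, counts per 1000000 after scaling, from counting error alone. As a check of the label, 7 of 8 colon epithelial markers were detected, KRT20 being at 0, and their summed level was 12140 to 12530 CPM in parental cells, 15490 to 15750 in R1 and 14020 to 14440 in R2. The keratins KRT8 and KRT18 made up most of this sum and rose in both resistant lines, as did VIL1, whereas EPCAM, CDH17 and LGALS4 fell in both, CDH17 from a mean of 597.6 CPM to 414.7 in R1 and 399 in R2. Their part in the HOX results was not tested. The 6 fibroblast markers summed to at most 3.19 CPM in any library, with COL1A2 at 0, the 5 leukocyte markers to at most 0.531, with PTPRC and CD3E at 0, and the 3 endothelial markers to at most 0.722.

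HOX genes encode homeodomain transcription factors that set position along the body axis. They lie in 4 clusters, which GENCODE places in hg38 at chr7:27092993-27200091 (HOXA), chr17:48528526-48728750 (HOXB), chr12:53938831-54056030 (HOXC) and chr2:176092721-176190907 (HOXD), and genes with the same number in different clusters are paralogues. Within a cluster, low numbers lie at the 3′ end and are used early and towards the head, and high numbers lie at the 5′ end and are used late and towards the tail. The adult gut keeps part of this pattern, with HOXB13 typical of its hindmost segment, and the intestinal factors CDX1 and CDX2 are known to activate HOX genes.

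The clusters also carry microRNAs that act on HOX messages. Sequences are shown because 1 of them, miR-196a, pairs with HOXB8, one of the genes that rose. Reads were counted over the HOXB loci of miR-196a and miR-10a, but such reads do not measure the mature microRNAs. The mature sequences are from RefSeq (GRCh38.p14), with the seed, bases 2 to 8, in capitals.
hsa-miR-196a-5p: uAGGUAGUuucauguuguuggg
hsa-miR-196b-5p: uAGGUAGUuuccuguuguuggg
hsa-miR-10a-5p: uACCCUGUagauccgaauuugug
MiR-196a and miR-196b share their seed, and miR-10a has another. The 3′ UTR of HOXB8 holds a long pairing site for miR-196a on the minus strand at chr17:48612770-48612791 (hg38), where the bases opposite the seed are in capitals.
HOXB8 site: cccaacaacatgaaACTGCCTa
Of the 22 bases of this site, 21 pair with miR-196a and 1 forms a G:U pair, at position 5 counted from the 5′ end of the microRNA. The site therefore holds no perfect match to the seed, which would read ACTACCT.

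The deposited tables show which clusters were in use. HOXB carried nearly all HOX counts, 37459 of 39991, with 9 of its 10 genes detected. HOXA gave 1890 counts with 7 of 11 genes detected, HOXC 641 counts with 5 of 9, and HOXD a single count, for HOXD11 in R2. Of the 18 members that were not detected, 12 had 0 counts in every library, among them HOXA9, HOXA13, HOXB1 and HOXC11, and 6 had 1 to 9. Of these 6, HOXA6 had 7 counts, all in the resistant lines, and HOXC10 had 5, all in parental cells. HOXA9 shares 15.9% of its exon bases with other transcripts on its strand in the GENCODE annotation, so its 0 is uncertain to that extent. At a stricter limit of 1 CPM in all 3 libraries of a line, 13 genes remained detected.

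**Figure D1:**
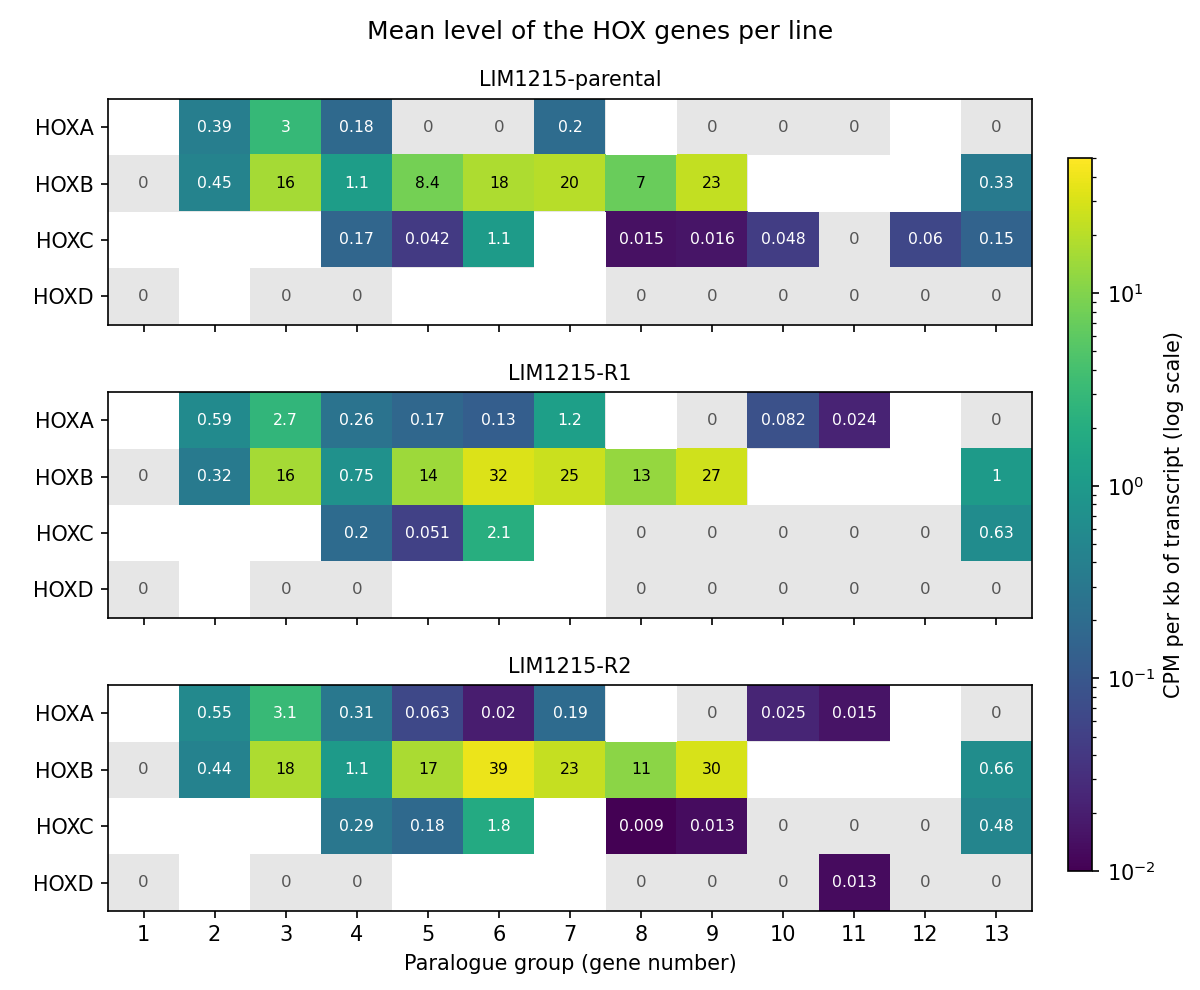
Mean level of each HOX gene in CPM per kb of transcript (colour, logarithmic scale, n = 3 libraries), with clusters as rows and paralogue groups as columns in 1 panel per line. Grey cells had 0 counts and white cells have no gene or one that is not reported; the HOXB row is the brightest in every panel and the HOXD row is empty but for 1 count.

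Summed over its genes, HOXB reached 205 ± 8.1 CPM in parental cells, 269.8 ± 2.83 in R1 and 295.2 ± 10.7 in R2 (mean ± SD, n = 3), and the libraries of either resistant line lay above all parental ones. HOXC also lay higher in both resistant lines, with 2.81 ± 0.411, 5.33 ± 0.268 and 5.01 ± 0.194 CPM in the same order. HOXA was at 12.2 ± 1.33, 14.1 ± 0.865 and 12.6 ± 0.844 CPM. Without genes that share exon sequence on their strand, the HOXA sums were 2.69, 5.08 and 2.61 CPM. HOXB then went from 120 CPM in parental cells to 162.7 in R1. Most of the HOXA rise in R1 came from 1 gene, HOXA7, at 0.413 CPM in parental cells and 2.49 in R1. The reduced sums also leave out HOXA3, at 9.23 CPM in parental cells and 8.2 in R1. HOXB made up 93.2% to 94.4% of the summed HOX level in each line, so its share hardly moved. These sums are descriptions without a test.

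Levels of different genes were compared per kb of transcript. In parental cells HOXB9 was highest at 23.2 CPM per kb, followed by HOXB7 at 20.0, HOXB6 at 17.6 and HOXB3 at 16.1. By this measure HOXB6 took the first place in both resistant lines, with 32.2 CPM per kb in R1 and 39.4 in R2. HOXB9 followed at 27.0 and 30.1. This order depends on the length used. Per kb of all annotated exon bases, HOXB9 was first in every line, and in R1 and R2 HOXB6 was at 20.7 and 25.4. In parental cells HOXB3 then lay at 7.17, below HOXB5 at 8.43. The highest members elsewhere were far lower: HOXA3 at 3.05, 2.71 and 3.09 CPM per kb of transcript, and HOXC6 at 1.06, 2.07 and 1.84, in the order parental, R1, R2.

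The comparison of each resistant line with parental cells asks how the HOX genes differ after resistance was acquired. At an adjusted p of at most 0.01 (edgeR's quasi-likelihood test, Benjamini-Hochberg over all 19102 genes tested), 11 of the 21 tested HOX genes were higher in R1 and 0 lower, and 7 were higher in R2 and 0 lower. Over all genes tested, 27.3% changed in R1, 14% higher and 13.4% lower, and 23.8% changed in R2, 12.3% higher and 11.6% lower. HOXA5, HOXA10 and HOXC12 passed the filter on low counts only through the lines where they were counted. HOXC5 passed it only through R2, which held 14 of its 21 counts. Of the 15 HOX genes that averaged 10 or more counts a library, 9 were higher in R1 and 7 in R2, and 0 were lower. Among all genes so counted, 18.6% were higher and 18% lower in R1, and 16.6% higher and 15.4% lower in R2. The set of 15 is not free of the filter either. HOXA7 and HOXC13 had under 10 counts in every parental library. HOXA7 entered the set only through R1, and HOXC13 only through the resistant lines. The median log2 fold change of these 15 HOX genes was 0.59 in R1 and 0.38 in R2. For all 19102 genes tested, with those of lower counts included, it was −0.01 and −0.0037. Both comparisons use the same parental libraries. At an unadjusted p under 0.05, 2 HOX genes were lower in R1, HOXB4 and HOXC12, and 1 in R2, HOXC12, and DESeq2 called 10 and 5 HOX genes, all higher. Leaving out R2 replicate 1 took the count for R2 from 7 to 4.

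Differentially expressed genes (DEGs) also needed a log2 fold change of 1.5 or more in size. HOXA5, HOXA7, HOXA10, HOXB13 and HOXC13 were DEGs in R1, and HOXC13 in R2. Of all genes tested, 5.14% were DEGs in R1, 3.24% with a higher level, and 4.82% in R2, 2.63% with a higher level. Without parental replicate 1 or 3 the HOX DEGs of R1 numbered 3, and without parental replicate 3 or R2 replicate 1 those of R2 numbered 0.

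Within HOXB, HOXB5, HOXB6, HOXB8, HOXB9 and HOXB13 rose in both resistant lines and HOXB7 rose in R1, and HOXB2, HOXB3 and HOXB4 at the 3′ end did not pass the test in either. Differences between these groups of genes were not tested.

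HOXB6, a central member of the cluster, had 26.9, 31.8 and 30.0 CPM in parental cells, 51.5, 53.9 and 56.5 in R1, and 70.5, 65.1 and 62.6 in R2. The 3 lines did not overlap, and R2 was the highest. The log2 fold change was 0.87 (SE 0.072, adjusted p = 1.24e-10) in R1 and 1.17 (SE 0.071, adjusted p = 2.17e-13) in R2. HOXB6 shares 16.6% of its exon bases with HOXB3 on the same strand in the GENCODE annotation, so its counts are uncertain to that extent.

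HOXB5, its neighbour on the 3′ side, went from 15.7 ± 0.574 CPM in parental cells to 26.6 ± 2.4 in R1 and 31.0 ± 2.41 in R2, and no parental library reached a resistant one. Its log2 fold changes were 0.77 (adjusted p = 7.73e-08) and 0.99 (adjusted p = 4.9e-10). HOXB8, which carries the miR-196a site shown above, rose from 15.3 ± 1.42 CPM to 28.0 ± 0.559 in R1 and 24.7 ± 0.669 in R2. The log2 fold changes of HOXB8 were 0.87 (adjusted p = 2.21e-09) and 0.70 (adjusted p = 1.72e-07). HOXB5 and HOXB8 share no exon bases on their strand with another gene.

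HOXB9, the member with the highest parental level per kb, had 57.0, 63.7 and 59.4 CPM in parental cells, 64.2, 75.0 and 70.1 in R1, and 79.3, 74.9 and 79.1 in R2. Its log2 fold change of 0.38 in R2 passed the test (SE 0.0631, adjusted p = 2.49e-05). In R1 the lowest library lay just above the highest parental one, and the change of 0.22 (SE 0.0636, adjusted p = 0.00745) was lost without parental replicate 1 or 3, without R1 replicate 2 or 3, or without R2 replicate 1 or 2, and also with scaling by total counts or a fit of only the 6 libraries compared, with an adjusted p of up to 0.0527. HOXB7 rose by a log2 fold change of 0.35 in R1 (adjusted p = 0.000663), and its value of 0.22 in R2 did not pass (adjusted p = 0.0283).

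HOXB13, the most 5′ member and the marker of the hindmost gut, had 0.944, 0.939 and 1.10 CPM in parental cells, 3.01, 3.83 and 2.63 in R1, and 2.14, 2.17 and 1.70 in R2. Every resistant library lay above every parental one. HOXB13 rose by a log2 fold change of 1.65 in R1 (SE 0.243, adjusted p = 3.7e-06) and 1.00 in R2 (SE 0.261, adjusted p = 0.00367). The call in R2 was lost with DESeq2 (adjusted p = 0.013) and without parental replicate 1 or 2 or R2 replicate 1 or 2 (adjusted p of up to 0.0185).

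Among the 3′ members, HOXB3 had 53.2 ± 0.59, 51.7 ± 2.86 and 58.9 ± 3.26 CPM in parental cells, R1 and R2, with log2 fold changes of −0.04 (adjusted p = 0.673) and 0.15 (adjusted p = 0.0739). Its R2 libraries all lay above the parental ones, and its R1 libraries overlapped with them. HOXB3 shares 6.42% of its exon bases with HOXB4 and HOXB6, so its counts are uncertain to that extent. HOXB4, with 2.28 ± 0.35 CPM in parental cells and 1.495 ± 0.263 in R1, had a log2 fold change of −0.59 that did not pass (adjusted p = 0.0488). HOXB2 stayed below 1.2 CPM in every library, and its values were −0.46 (SE 0.431, adjusted p = 0.455) and −0.01 (SE 0.412, adjusted p = 0.992), with errors wider than the changes of HOXB7 and HOXB9.

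**Figure D2:**
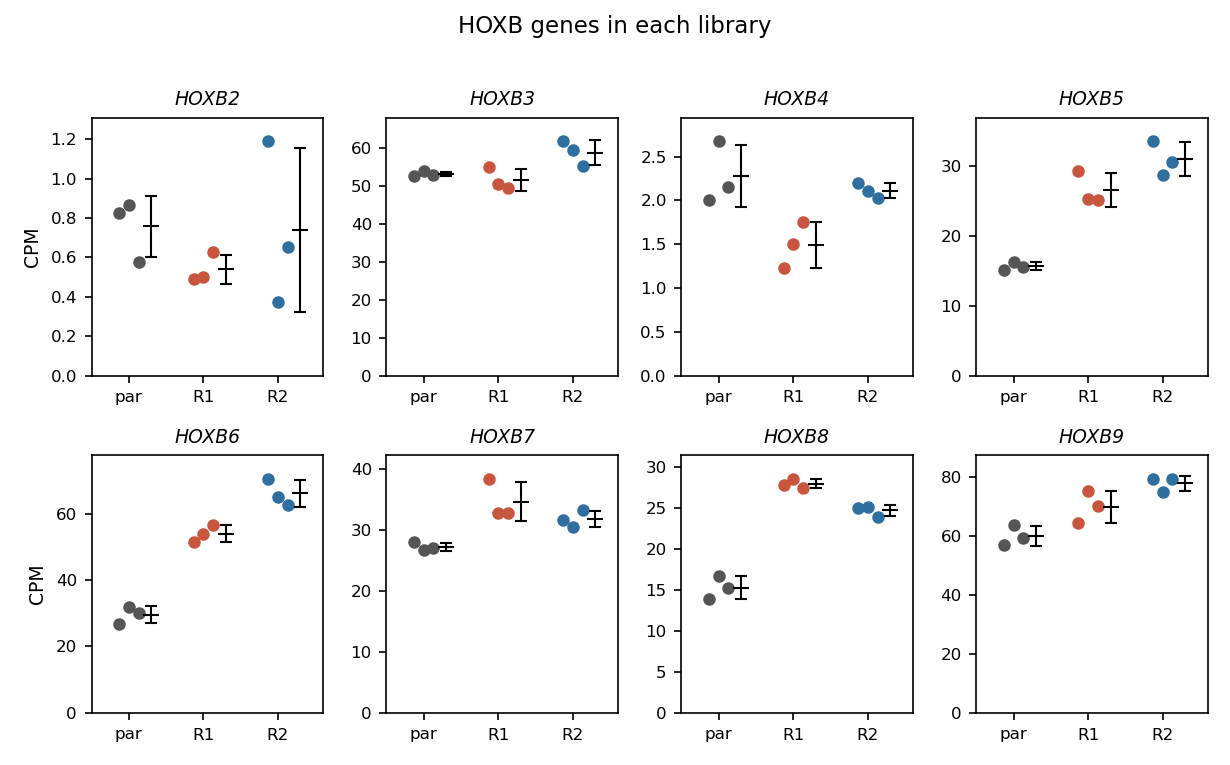
CPM of 8 HOXB genes in each library (coloured points; par, R1 and R2 are the 3 lines), with the mean and SD of 3 libraries in black; each panel has its own axis from 0. HOXB5, HOXB6 and HOXB8 show parental libraries clear below both resistant lines, and HOXB2 and HOXB3 show no such step in R1.

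HOXA7 differed between the resistant lines more than any other HOX gene. It had 8, 7 and 5 counts in parental cells, 38, 42 and 40 in R1, and 9, 5 and 5 in R2, or 0.413 ± 0.132, 2.49 ± 0.153 and 0.391 ± 0.126 CPM. R1 stood clear of both other lines, which overlapped. The log2 fold change was 2.60 in R1 (SE 0.322, adjusted p = 2.27e-07) and −0.03 in R2 (SE 0.453, adjusted p = 0.98). The difference itself, R2 against R1, was −2.64 (SE 0.326, adjusted p = 1.56e-06). HOXA7 shares no exon bases on its strand with another gene, and its 3′ UTR holds 4 copies of the miR-196 seed match ACTACCT, more than that of any other HOX gene.

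HOXA5 and HOXA10, which flank this stretch of the cluster on the 3′ and the 5′ side, had few counts. HOXA5 had 0 counts in the 3 parental libraries, 5, 5 and 4 in R1, and 0, 3 and 2 in R2. Its level in R1 was 4.82-fold the limit of 3 counts over the parental libraries (adjusted p = 0.00423). In R2 it was 1.72-fold this limit, and the test was not passed (adjusted p = 0.0759). These ratios leave out the counting error of the resistant line. HOXA10 had 0 parental counts, 4, 2 and 4 in R1 and 1 in each library of R2. Its level in R1 was 3.45-fold the same limit (adjusted p = 0.00915), and in R2 the test gave an adjusted p of 0.154. Both calls rest on few reads. That of HOXA5 was lost without parental replicate 1 or 3 (adjusted p of up to 0.018), and that of HOXA10 in 9 alternatives, among them the removal of any 1 parental or R2 library (adjusted p of up to 0.033), and DESeq2 gave HOXA10 no adjusted p. HOXA10 also shares 9.93% of its exon bases with a read-through transcript, and the read-through gene HOXA10-HOXA9 was listed with 0 counts.

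HOXA3, the HOXA member with the highest level per kb, had 7.67, 10.0 and 9.98 CPM in parental cells, 8.04, 9.48 and 7.07 in R1, and 9.57, 8.73 and 9.73 in R2. The 3 lines overlapped, and the log2 fold changes of −0.17 (adjusted p = 0.354) and 0.02 (adjusted p = 0.934) did not pass. HOXA2 and HOXA4 did not pass in any comparison. HOXA3 and HOXA4 share 9.29% and 31.3% of their exon bases with other transcripts on their strand, so their counts are uncertain to that extent.

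In HOXC, HOXC13 and HOXC6 rose in both resistant lines. HOXC13, the paralogue of HOXB13 and known from hair and nail, had 6, 9 and 1 counts in parental cells, 22, 24 and 26 in R1, and 25, 13 and 17 in R2. These correspond to 0.352 ± 0.299, 1.49 ± 0.139 and 1.13 ± 0.341 CPM, and every resistant library lay above every parental one. The log2 fold changes were 2.18 (SE 0.438, adjusted p = 0.000237) and 1.79 (SE 0.459, adjusted p = 0.00316). The call in R2 was lost without parental replicate 3, which held the single count, and without R2 replicate 1, with log2 fold changes of 1.20 (adjusted p = 0.0352) and 1.53 (adjusted p = 0.0328).

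HOXC6, the HOXC member with the highest level per kb, had 1.83, 1.23 and 2.21 CPM in parental cells, 3.93, 3.14 and 3.19 in R1, and 3.15, 2.91 and 3.07 in R2. The parental libraries lay below all others, and the log2 fold changes were 0.93 (SE 0.215, adjusted p = 0.00104) and 0.76 (SE 0.219, adjusted p = 0.0078). In R2 the call was lost with DESeq2 (adjusted p = 0.0217) and without parental replicate 1 or 2, R1 replicate 3 or any 1 R2 library (adjusted p of up to 0.0463). HOXC6 shares 16.1% of its exon bases with other HOXC transcripts. HOXC12 had 4, 2 and 4 counts in parental cells and 0 in all resistant libraries. Its parental level was 3.23-fold the limit of 3 counts over the libraries of either resistant line, which leaves out the parental counting error. The test was not passed (adjusted p = 0.0158 in R1 and 0.0176 in R2). HOXC4 and HOXC5, of whose exon bases 17.5% and 67.3% are shared with other transcripts, did not pass.

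**Figure D3:**
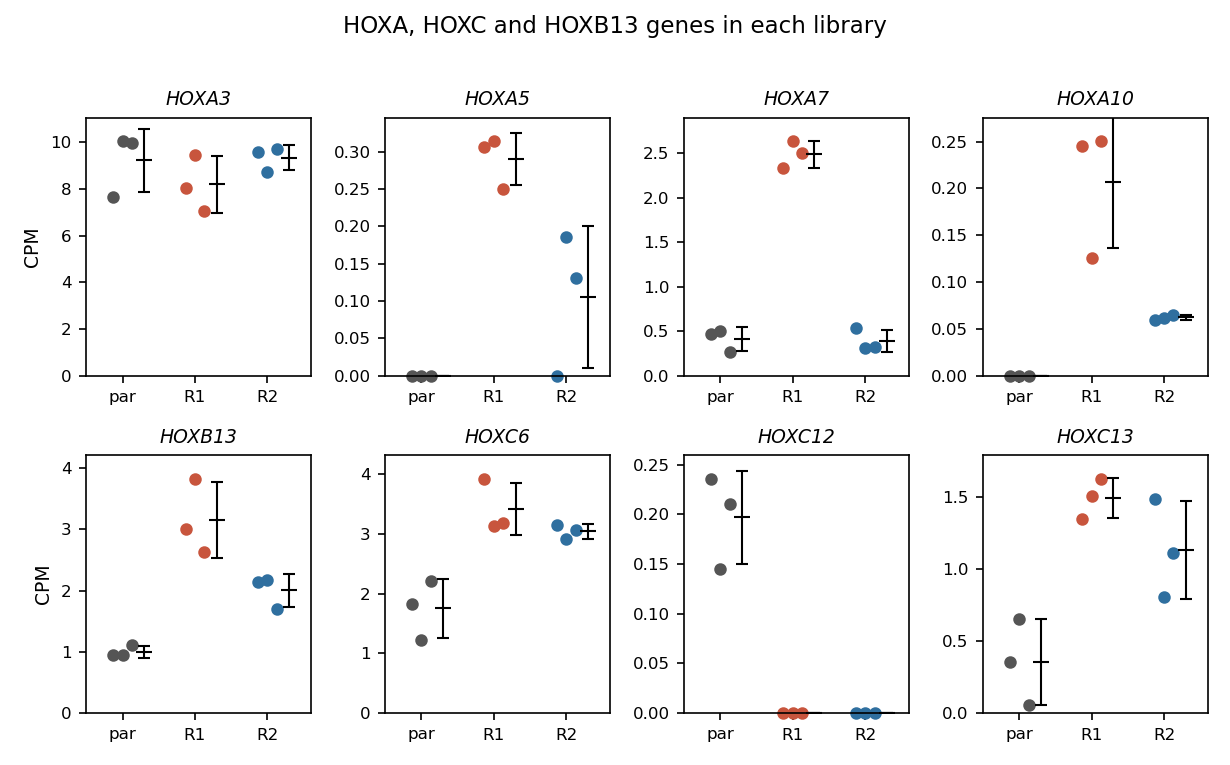
CPM of HOXA3, HOXA5, HOXA7, HOXA10, HOXB13, HOXC6, HOXC12 and HOXC13 in each library (coloured points; par, R1 and R2 are the 3 lines), with the mean and SD of 3 libraries in black and an axis from 0 in each panel. HOXA7 is high in R1 alone, whereas HOXB13, HOXC6 and HOXC13 lie above the parental libraries in both resistant lines.

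Set against each other, the resistant lines differed in 2 HOX genes, where 7.16% of all genes tested differed, 3.39% being higher and 3.77% lower in R2. HOXA7 was lower in R2, as given above, and was the only HOX DEG of this comparison, in which 0.764% of all genes were DEGs and 0.55% were DEGs that were lower. HOXB6 was higher in R2, with a fitted log2 difference of 0.29 (SE 0.0669, adjusted p = 0.00327) that was lost without R1 replicate 1 or R2 replicate 1 or 2 (adjusted p of up to 0.0477). The other 19 gave adjusted p-values between 0.0449 and 1, and for HOXB13, the lowest of them, the log2 fold change was −0.65.

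**Figure D4:**
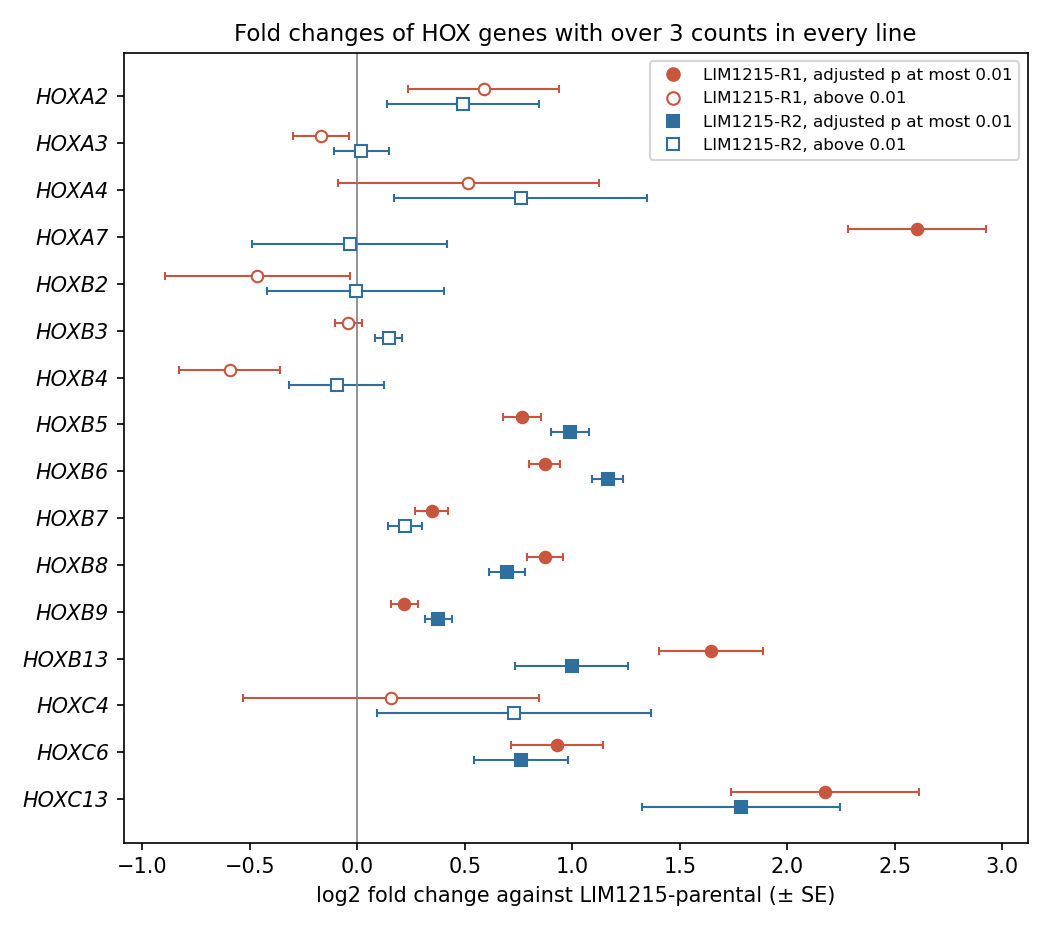
Log2 fold change against parental cells with its SE for 16 tested HOX genes that had more than 3 counts in every line, R1 as circles and R2 as squares, filled where the adjusted p was at most 0.01. Filled symbols lie to the right of 0 only, from HOXB9 at 0.22 to HOXA7 at 2.60 in R1.

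HOX proteins bind DNA together with cofactors of the PBX, MEIS and PKNOX families. Of the 9 cofactors, 8 were tested, and 2 were higher and 2 lower in each resistant line (50%, beside 27.3% of all genes in R1 and 23.8% in R2), with PBX3 and MEIS3 among the DEGs of both. Between the resistant lines 0 cofactors differed by edgeR or DESeq2, and 1, MEIS3, at an unadjusted p under 0.05. PBX3 fell in both lines, and it passed the filter on low counts only through parental cells. It had 29, 14 and 23 parental counts, 2, 1 and 1 in R1, with a log2 fold change of −3.87 (adjusted p = 3.35e-06), and 0, 1 and 0 in R2 (adjusted p = 4.11e-07). The ratio of the parental to the R2 level of PBX3 was 63.9, with an exact 95% counting interval from 11.1 to 2563. MEIS3 went the other way. It rose from 0.230 ± 0.144 CPM to 2.22 ± 0.0631 in R1 and 1.34 ± 0.387 in R2, by log2 fold changes of 3.17 (adjusted p = 1.36e-07) and 2.45 (adjusted p = 2.88e-05). PBX4 rose by 0.73 (adjusted p = 0.0023) and 0.88 (adjusted p = 0.000313), and in R1 this was lost without parental replicate 2 or 3 (adjusted p of up to 0.0164). PKNOX1, at 32.2 ± 1.62, 30.1 ± 1.74 and 30.4 ± 0.755 CPM, did not pass, nor did PBX2, MEIS1 and MEIS2, and PKNOX2 was at 0.

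Of the factors that act on HOX genes, 15 of 20 were tested. In R1, 2 were higher and 3 lower, and in R2, 3 were higher and 2 lower, with no DEG. This was 33.3% of those tested in each line, near the 27.3% and 23.8% of all genes. CDX2 was at 412.8 ± 17.3 CPM in parental cells, 305.2 ± 10.5 in R1 and 282.9 ± 4.7 in R2, a log2 fold change of −0.44 (adjusted p = 4.66e-09) and −0.55 (adjusted p = 6.04e-11). CDX1 was at 194.7 ± 9.26, 107.8 ± 5.23 and 124.2 ± 5.91 CPM, with −0.85 (adjusted p = 3.91e-13) and −0.65 (adjusted p = 9.23e-11). Both CDX factors were lower in the lines where HOXB5, HOXB6, HOXB8 and HOXB9 were higher, with no parental library at the level of a resistant one. A link between these changes was not tested. Of the chromatin factors, KMT2A, a methyltransferase that keeps HOX genes active, had a log2 fold change of −0.22 in R1 (adjusted p = 0.00194, lost without parental replicate 3 or R1 replicate 3), and WDR5, its partner, did not pass. Of the Polycomb factors, which keep HOX genes silent, EED was higher in both lines, by 0.25 (adjusted p = 0.00584) and 0.24 (adjusted p = 0.00836) on the log2 scale, and RNF2 in R2, by 0.27 (adjusted p = 0.00375). The EED and RNF2 calls were lost in several alternatives, with an adjusted p of up to 0.0421 for EED and 0.0237 for RNF2.

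The clusters also give rise to noncoding RNAs, of which 8 of 24 were tested. In each resistant line 1 was higher and 1 lower, both DEGs, and this share of 25% was close to the 27.3% and 23.8% of all genes that changed. HOXB-AS3, antisense to the middle of HOXB, had 0, 0 and 1 counts in parental cells, 5, 8 and 9 in R1, and 5, 8 and 5 in R2. The ratio of the resistant to the parental level was 22.7 in R1 (exact 95% counting interval 3.68 to 938.3, adjusted p = 0.000759) and 18.6 in R2 (2.93 to 774.1, adjusted p = 0.00243). The call in R2 was lost with DESeq2 (adjusted p = 0.0113) and without parental replicate 1 or R2 replicate 2. HOXB-AS3 passed the filter on low counts only through the resistant lines.

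HOXA-AS2, antisense to the 3′ part of HOXA, had 23, 16 and 24 parental counts and 8, 7 and 5 in each of the resistant lines. It fell by 1.59 on the log2 scale in both (adjusted p = 0.00107 in R1 and 0.00117 in R2), though with DESeq2 the adjusted p in R2 was 0.0101. HOTAIRM1, from the 3′ end of HOXA, was at 2.63 ± 0.286, 2.34 ± 0.297 and 2.17 ± 0.136 CPM and did not pass. HOTAIR and HOTTIP had 0 counts. HOXC13-AS, antisense to HOXC13, had 0 counts in parental cells, 1 in each library of R1, and 5, 0 and 2 in R2, and did not pass (adjusted p = 0.189 and 0.0476).

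The locus of miR-196a in HOXB, MIR196A1, was counted at 1.69 ± 0.48, 1.45 ± 0.349 and 1.34 ± 0.0939 CPM and did not pass (adjusted p = 0.648 and 0.465). MIR196A2 and MIR196B had 0 counts. In poly(A) libraries such reads come from longer transcripts over the locus and do not measure the mature microRNA. Perfect matches to the shared seed of miR-196 lie in the 3′ UTR of 8 of 39 HOX genes (20.5%), and of 7% of all coding genes. Among the detected HOX genes they lie in HOXA5, HOXA7, HOXB6, HOXB7 and HOXB13. The matches are letters in a sequence and not tested sites.

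Outside the clusters, 9 of 14 neighbouring genes were tested, and 2 were higher and 1 lower in each resistant line (33.3%, near the 27.3% and 23.8% of all genes). SKAP1, a T cell adaptor gene that lies beyond HOXB1, was the only DEG among them. It had 0, 1 and 0 counts in parental cells, 54, 61 and 50 in R1, and 40, 57 and 46 in R2. The gene thus passed the filter on low counts only through the resistant lines. The ratio to the parental level was 170.5 (exact 95% counting interval 30.2 to 6775, adjusted p = 1.1e-11) and 147.6 (26.1 to 5870, adjusted p = 3.81e-11). HOXB1, the HOX gene nearest to SKAP1, had 0 counts in every library, and PRAC1 and PRAC2, which lie next to HOXB13, also had 0. The remaining changes were small: CBX5 beside HOXC had log2 fold changes of −0.45 (adjusted p = 5.14e-09) and −0.29 (adjusted p = 9.02e-06).

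**Figure D5:**
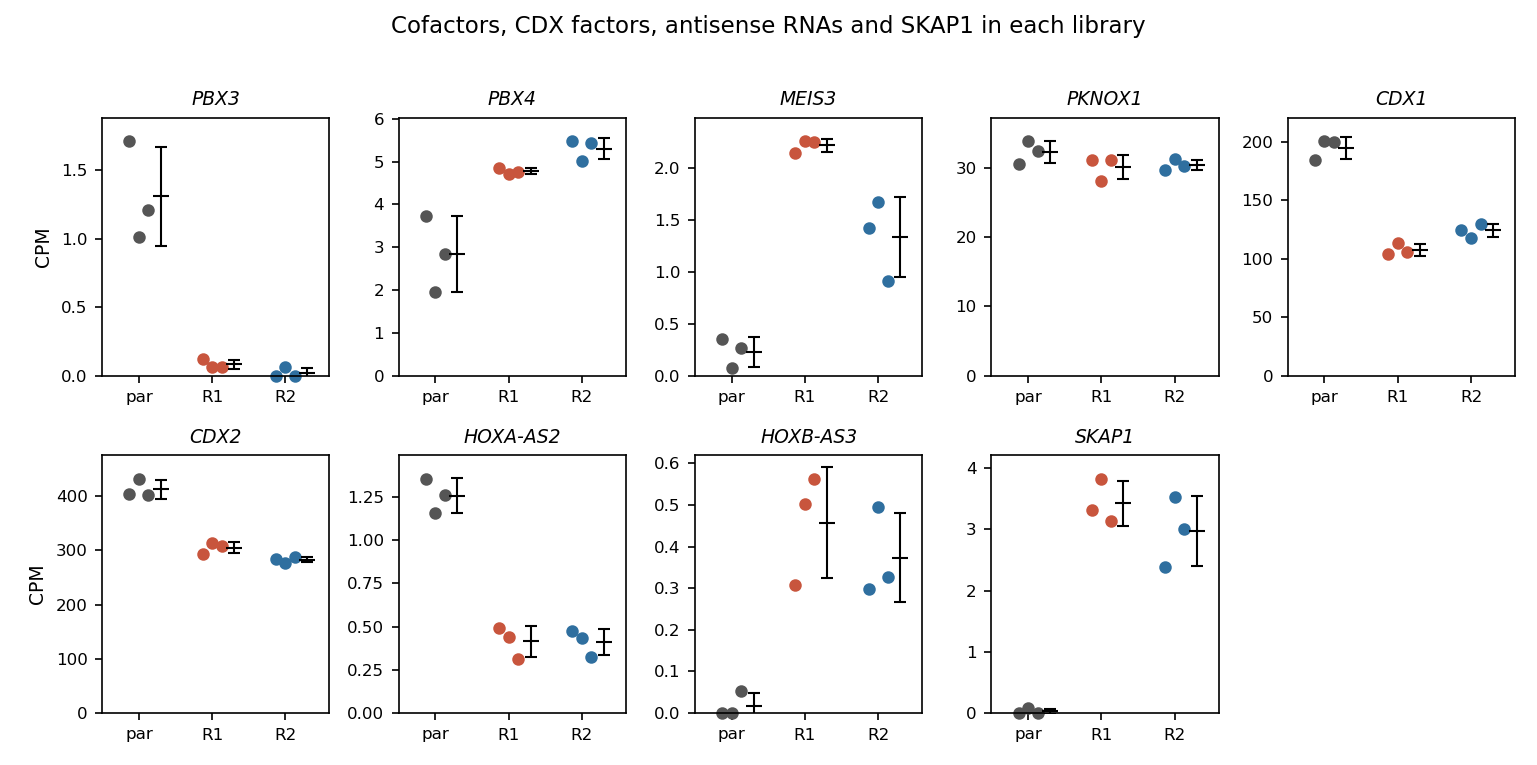
CPM of 4 HOX cofactors, CDX1 and CDX2, the antisense RNAs HOXA-AS2 and HOXB-AS3, and SKAP1 in each library (coloured points; par, R1 and R2 are the 3 lines), with the mean and SD of 3 libraries in black and an axis from 0 in each panel. PBX3, CDX1, CDX2 and HOXA-AS2 are lower in both resistant lines, MEIS3, HOXB-AS3 and SKAP1 are higher, and PKNOX1 overlaps.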

How the data were processed

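RNA was measured in 9 libraries of 3 LIM1215 lines (parental, R1 and R2), grouped from the sample titles. The authors prepared stranded poly(A) libraries, aligned paired reads to hg38 with STAR, counted them on the reverse strand with HTSeq 0.9.1 and deposited raw counts per gene symbol; the gene annotation is not given in the sources used here.

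The tests were run with edgeR 4.0.16 in R 4.3.3: genes with at least 10 counts in all were kept (19102), scaled by TMM and fitted in 1 quasi-likelihood model in which each line was a group; p-values were two-sided and Benjamini-Hochberg adjusted across every tested gene. The script was tested on simulated data. SEs were derived from the test statistic. CPM use TMM factors. Ratios to 0 counts use 3 counts over the 3 libraries of a line in place of 0 and leave out the counting error of the other line. Ratios to 1 to 3 counts have exact 95% counting intervals, which cover counting error only. Transcript lengths, positions, shared exons and 3′ UTRs are from GENCODE release 44, which may differ from the authors' annotation. Replicates of a line differed by more than sampling noise (chi-square per degree of freedom 1.82 to 6.04), so none was merged.

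The HOX genes, the lists of cofactors, noncoding RNAs, neighbours, regulators and markers, and the rule for naming genes were chosen with earlier results of these data known. By that rule, library values are given for HOX DEGs and the highest HOX gene per kb of each cluster, fold changes for other changed HOX genes, and of the lists the DEGs, genes next to a HOX DEG and up to 4 examples by level; KMT2A, WDR5, EED, RNF2, HOXB2, HOXB3, HOXB4, HOTAIR, HOTTIP and some others were named beyond it, after their values were seen. Some genes are not reported here. Alternatives were other filters, DESeq2's size factors or total counts, DESeq2 1.42.0, 6-library fits, the replicate block and each library left out.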

Additional observations from a re-analysis of the deposited data

Results flagged for a closer look

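In 5 genes the change against LIM1215-parental differed between the resistant lines in the direct comparison of LIM1215-R2 with LIM1215-R1 (edgeR's quasi-likelihood test). These were 2 of 21 tested HOX genes, 2 of 9 neighbours and 1 of 15 regulators, with 0 of 8 cofactors and 0 of 8 noncoding RNAs. Of all genes tested, 7.16% differed in this comparison. HOXA7 had a log2 fold change of −2.64 (adjusted p = 1.56e-06) and HOXB6 one of 0.29 (adjusted p = 0.00327). CALCOCO1, a neighbour of HOXC, had −0.46 (adjusted p = 0.00091), as it rose by 0.44 in LIM1215-R1 (adjusted p = 0.000344) and had a value of −0.02 in LIM1215-R2 (adjusted p = 0.895). LNPK, a neighbour of HOXD, had 0.31 (adjusted p = 0.00473), with log2 fold changes of −0.05 in LIM1215-R1 (adjusted p = 0.666) and 0.26 in LIM1215-R2 (adjusted p = 0.00668), the latter lost in 7 alternatives with an adjusted p of up to 0.07: scaling by total counts, and leaving out parental replicate 2 or 3, R1 replicate 3 or any 1 R2 library. KMT2A had 0.27 (adjusted p = 0.000741), with 132.4 ± 3.31, 114.1 ± 0.695 and 137.7 ± 9.86 CPM (n = 3) in the order parental, R1, R2. The differences of CALCOCO1, HOXB6, LNPK and KMT2A were each lost when 1 of 2 to 4 particular libraries was left out, and that of HOXA7 was kept in every alternative run.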

How the results depend on the processing

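Of the values for single genes under the alternatives, 1187 kept direction and side of the threshold, 78 lost the call, 11 gained one and 0 reversed. HOX genes changed numbered 8 to 10 in LIM1215-R1, 4 to 7 in LIM1215-R2 and 1 to 2 between the resistant lines with 1 library left out, and DEGs 3 to 4, 0 to 1 and 1. Requiring at least 10 counts in every library of a line left 3 HOX DEGs in LIM1215-R1, since HOXA5 and HOXA10 were then not tested, and 1 changed noncoding RNA. DEGs at a log2 fold change of at least 1 numbered 2 in LIM1215-R2, and 13 HOX genes reached 1 CPM in all 3 libraries of a line. Without genes that share exon sequence, the cluster sums in the order parental, R1, R2 were 2.69, 5.08 and 2.61 CPM for HOXA, 120, 162.7 and 168.1 for HOXB, and 0.584, 1.49 and 1.16 for HOXC. Scaling by total counts gave 266.5 CPM for HOXB in LIM1215-R1. Same-numbered libraries of different lines did not deviate together, with 0 of 9 correlations over 0.1 (−0.0186 to 0.0984), so the numbers were not taken as pairs. With the replicate block, 10 HOX genes changed in LIM1215-R1, HOXA10 being lost (adjusted p = 0.0133), 7 in LIM1215-R2 and 2 between them. HOXA5, HOXA10, HOXC12 and HOXC5 have too few counts for a change of moderate size to be detectable.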

Other observations

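Genes within 1000000 bases of each cluster, other than the HOX genes, were counted after the results above were known. Genes inside a cluster, such as its antisense RNAs, were included. Around HOXB, 38 were tested, and 6 were higher and 4 lower in LIM1215-R1 (26.3%), and 4 higher and 2 lower in LIM1215-R2 (15.8%), beside 27.3% and 23.8% of all genes tested. Their median log2 fold changes were 0.01 and −0.01. Around HOXC, 38 were tested, and 10 were higher and 8 lower in LIM1215-R1 (47.4%), and 9 higher and 6 lower in LIM1215-R2 (39.5%), with medians of 0.19 and 0.14. Around HOXA, 6 of 13 changed in LIM1215-R1 and 4 in LIM1215-R2, and around HOXD 1 of 5 in each. SKAP1 was not the only DEG in these wider stretches. DEGs in LIM1215-R1 and LIM1215-R2 numbered 3 and 3 around HOXA, 3 and 3 around HOXB, 4 and 3 around HOXC, and 0 and 0 around HOXD. HOXA-AS2 and HOXB-AS3, given above, were among them. The DEGs around HOXB were not all the same in both lines. Of all genes tested, 5.14% and 4.82% were DEGs.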
